A study of Mus musculus with 27 samples.

Results

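Tumour macrophages exposed to cisplatin and a CSF-1R-blocking antibody at once are described here against macrophages from tumours given a control antibody. The members were taken from the sample titles alone. They are 2 combination libraries and 4 control-antibody libraries, 6 of the 27 RNA-seq libraries in the series, read over all 9996 genes of the deposited table. The macrophages were sorted by flow cytometry from mammary tumours of K14cre;Cdh1F/F;Trp53F/F mice. In these mice the keratin 14 promoter drives Cre in epithelial cells, so that E-cadherin and p53 are lost in the tumour-forming cells, and every group carries these alleles. Combination mice received cisplatin with anti-CSF-1R and were killed 1 day after the second cisplatin injection. Control mice received the control antibody and were killed when their tumour reached 100 mm2. The comparison is therefore also one between endpoints, and treatment and endpoint cannot be told apart. For reference the text also uses the 4 macrophage libraries given cisplatin with control antibody (the same day 1 endpoint), the 2 given anti-CSF-1R (the 100 mm2 endpoint), and the 4 combination and 4 control neutrophil libraries. No label says that libraries of a group came from separate mice, so a p-value measures the spread between these libraries and no more.

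CSF-1R is the receptor for the growth factors CSF-1 and IL-34, and most tissue and tumour macrophages depend on it for survival and proliferation. An antibody that blocks it removes many of them and leaves those that tolerate its loss, together with cells newly recruited from blood monocytes. Cisplatin forms DNA crosslinks, which stall replication and activate p53. Type I interferon, made by many cells when nucleic acids reach the cytosol, acts through JAK kinases and STAT transcription factors to switch on a large set of antiviral and antigen presentation genes.

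Values are the authors' normalised read counts, which are library-scaled counts and not per gene length. Most printed values below 1000 had lost their decimal point in the deposited table. It was put back only where the whole number of reads behind each value, 1 read being worth 0.374 and 0.711 units in combination libraries and 0.458 to 0.811 units in control libraries, settled its place with a probability of at least 0.95. A value that could not be settled is called unplaced below and enters no test. A value listed at 1 stands for 1 or less. The combination libraries held 3595794 and 2140268 reads over the table's genes, and the control libraries 1622340 to 2704878. Genes were tested with limma on log2(value + 1), with all 12 macrophage libraries in the fit and Benjamini-Hochberg adjustment over all genes tested. "Passed" means an adjusted p below 0.05 in that test, and every log2 fold change is on the log2(value + 1) scale.

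Both combination libraries resembled each other and stood away from most controls. The correlation of their log2 values was 0.972, the highest between libraries of any 1 macrophage group, where the lowest was 0.927. Combination replicates 1 and 2 correlated at 0.961 and 0.963 with anti-CSF-1R replicate 1 and at 0.925 and 0.935 with anti-CSF-1R replicate 2. With control replicate 4 the values were 0.951 and 0.948. On the first principal component of the 12 macrophage libraries, which held 28.3% of the variance, the combination libraries lay at 18.2 and 21.1. Control replicates 1 to 3 lay at −17.9, −20.8 and −5.80, and control replicate 4 stood apart from them at 6.80. The same control library had the summed levels of the interferon-stimulated and MHC class I lists closest to the combination, and results that change without it are given below.

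**Figure D1:**
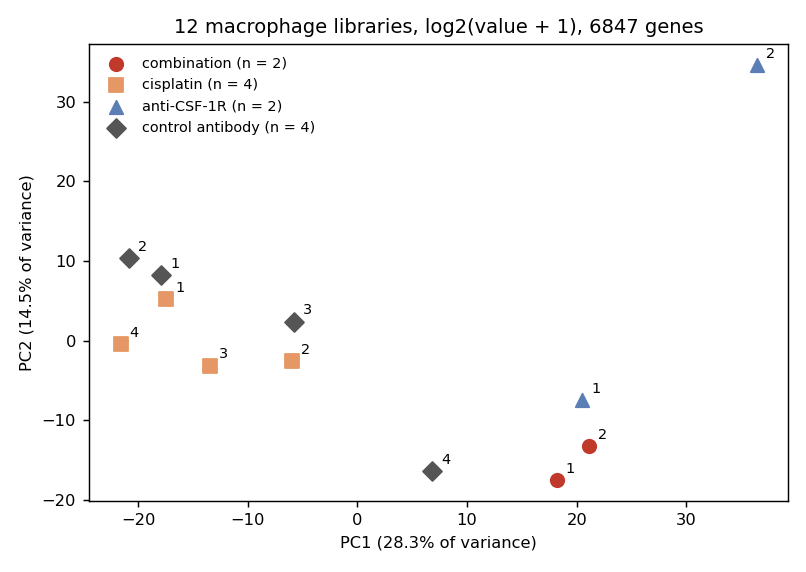
First and second principal components of the 12 macrophage libraries over 6847 genes with a value in all of them, 1 point per library, coloured by treatment (combination, cisplatin, anti-CSF-1R, control antibody). The 2 combination libraries sit at 18.2 and 21.1 on the first component, with the 2 anti-CSF-1R libraries on the same side, while 3 of 4 control libraries and all cisplatin libraries are below 0 and control replicate 4 is at 6.80.

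Many macrophage markers were abundant in all 6 libraries, but others were low, such as Timd4 with 4.87 to 32.9 units. Markers of lineages other than macrophages and monocytes ranged between the floor and 784 units. The highest was Itgax in control replicate 3, an integrin in the dendritic cell list that macrophages also express. The summed level of the 19 macrophage markers placed in every library was 54980 to 58230 in combination libraries, against 42600 to 53430 in control libraries. Lyz2 made up much of this sum, with 21760 and 22960 units in combination libraries and 11810 to 17440 units in control libraries. Of the 30 macrophage markers tested, 17 had a negative log2 fold change. Cd3d, the T cell receptor chain gene, was at 2.13 or less in all 6 libraries. Pax5, which defines B cells, was at 1 in both combination libraries and at 2.07 or less in control libraries. Krt14, whose promoter drives the Cre, was at 1 in both combination libraries and at 2.75 or less in control libraries. Fcer1a and Mcpt1 of mast cells were at 1 in all 6 libraries. The summed levels of the 7 B cell, 5 epithelial and 6 mast cell markers placed in every macrophage library were each at most 14.7 in combination libraries and at most 28.5 in control libraries. Other members were higher: Hdc, a histidine decarboxylase of mast cells and granulocytes, had 61.0 and 103 units in combination libraries and 85.4 and 38.5 units in 2 control libraries, and Cdh1 of epithelium reached 58.6 units in control libraries and was unplaced in both combination libraries. Klrk1, an NK cell receptor gene, had 54.3 and 88.8 units in combination libraries and 1 and 59.7 units in 2 control libraries. In bulk RNA, fewer cells of a type and less RNA per cell cannot be told apart, which holds for every result below.

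Of 9085 genes tested, 210 (2.31%) passed between combination and control macrophages. In combination macrophages 104 genes were higher (1.14%) and 106 were lower (1.17%). The changes were large: the absolute log2 fold change of the 210 genes had a median of 1.79 and ran between 0.88 and 6.60. None of the 210 had overlapping groups in their placed values, whereas 27.7% of the 8352 genes with enough placed values did not overlap. The other 911 genes were not tested, because they were too low or had no placed value in 1 of the groups. The number of calls depended on single libraries. Without combination replicate 1 it was 35, without combination replicate 2 it was 13, and without control replicates 1, 2, 3 or 4 it was 96, 101, 146 or 512. In the first 2 of these fits the lone combination library is assumed to vary like the other groups. With the decimal places settled without knowledge of the groups, 91 of 9072 genes (1.0%) passed. Of the 199 called genes that this version could test, 88 passed in the same direction and none had the opposite sign. Among the genes named below, Casp4, Ccl6, Ccl9, Chil3, Cks1b, Ear1, Egr1, Foxm1, Gvin1, H2-M2, Il15, Il18, Lsm2, Mcm5, Pmepa1, Ptgs1, Sort1 and Tbc1d4 did not pass in that version (adjusted p = 0.0514 to 0.965), besides those where this is said. Plac8 (adjusted p = 0.0760), Fcgr1 and Dusp1 did not pass in that version either. Of the replication genes only Mcm2 and Pola1 passed in it, and of 59 interferon-stimulated genes 6 did. Gas6, I830012O16Rik, Mvb12b and Rtp4 could not be tested in it. An exact rank-sum test of a single gene with 2 libraries against 4 cannot give a two-sided p under 0.133.

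**Figure D2:**
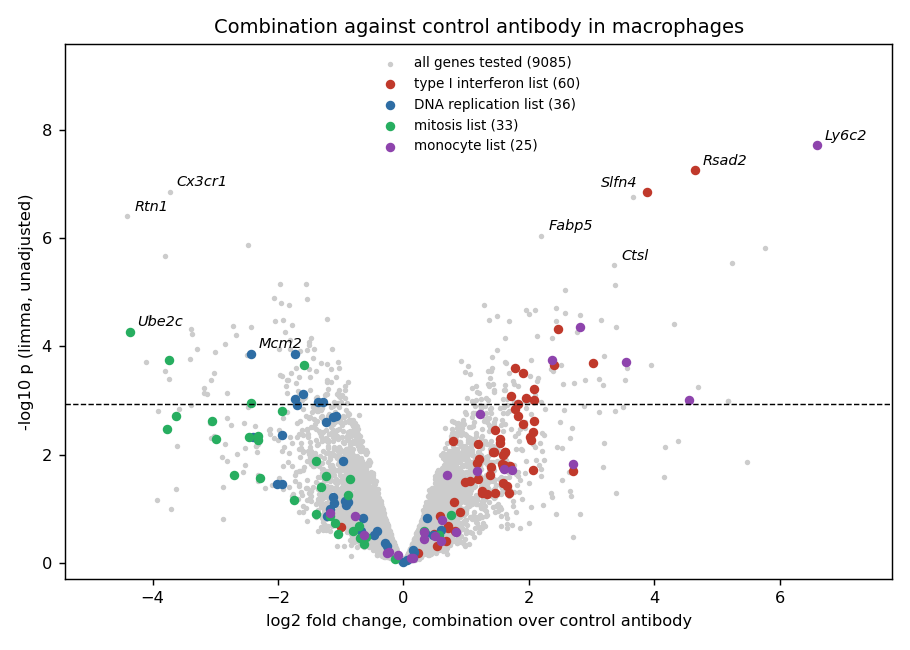
Log2 fold change of combination over control macrophages (horizontal axis, log2(value + 1) scale) against −log10 of the unadjusted limma p (vertical axis) for the 9085 genes tested, 1 grey point per gene, with the interferon, replication, mitotic and monocyte lists in colour and a dashed line at the largest p of a gene that passed. The 104 higher and 106 lower genes above the line reach 6.60 (Ly6c2) and −4.40 (Rtn1).

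The receptor targeted by the antibody was lower in combination macrophages without passing the test. Csf1r had 1126 and 1180 units in combination libraries, against 2324, 2243, 2438 and 1777 units in control libraries. The groups did not overlap, and the log2 fold change of −0.92 ± 0.23 (SE) had an adjusted p of 0.0561 in limma. Antibody blockade acts on the receptor protein, so the Csf1r transcript is no check of the treatment. Adgre1, the gene of the F4/80 antigen used to identify mouse macrophages, had 486 and 629 units in combination libraries and between 475 and 608 units in control libraries. The 2 ranges overlapped, with a log2 fold change of 0.04 ± 0.20 and an adjusted p of 0.940. Cd68, a late endosomal glycoprotein of macrophages, had 1459 and 1811 units in combination libraries, against 911 to 1193 units in control libraries, and did not pass either (0.58 ± 0.28, adjusted p = 0.298).

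Cx3cr1, the fractalkine receptor carried by resident macrophages and by patrolling monocytes, fell furthest among the macrophage markers. It had 81.2 and 29.8 units in combination libraries, against 899, 781, 371 and 758 units in control libraries. Both combination values were below every control value, and the log2 fold change was −3.73 ± 0.38 with an adjusted p of 0.000315. The call held with each of the 6 libraries left out and with places settled without the groups. Gas6, the bridging ligand that joins dying cells to the receptors Axl and Mertk, had 28.45 units in the 1 placed combination library, against 155 and 161 units in the 2 placed control libraries (log2 fold change −2.43 ± 0.37, adjusted p = 0.00954). Slco2b1, an organic anion transporter, had 4.97 units in the 1 placed combination library and between 26.2 and 95.2 units in control libraries (−3.07 ± 0.63, adjusted p = 0.0309). C1qc, a chain of the complement initiator C1q, had 1216 and 810 units in combination libraries, against 2047 to 2860 units in control libraries (−1.22 ± 0.27, adjusted p = 0.0317).

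Of 30 macrophage markers tested, 4 fell and 1 rose, and the median log2 fold change was −0.28, beside 0.0012 over all genes tested. The marker that rose was Fcgr1, the high-affinity IgG receptor, with 728 and 762 units in combination libraries and 172 to 518 units in control libraries (1.65 ± 0.39, adjusted p = 0.0456). Fcgr1 is also inducible by interferon. Without combination replicate 1, 1 marker passed lower and none higher. Without combination replicate 2, 2 passed lower and none higher. The calls for C1qc and Fcgr1 were lost in each of these fits (C1qc adjusted p = 0.0901 and 0.408), and the calls for Gas6 and Slco2b1 rest on a single combination library.

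Of the monocyte genes, 5 rose. Ly6c2 (chromosome 15, 75108158 to 75111970, minus strand, GRCm38), a surface antigen of inflammatory monocytes, had the largest fold change of the called genes. It had 159.5 and 637 units in combination libraries, against 5.04, 1, 2.07 and 2.23 units in control libraries. The control libraries were near the floor of the table while both combination libraries were far above it, although the combination values differed from each other several-fold. The log2 fold change was 6.60 ± 0.54 with an adjusted p of 0.000169, and it depends on the pseudocount because 1 control value is listed at 1. The call held in all 6 fits with a library left out.

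Chil3, a chitinase-like lectin of monocytes and activated macrophages, had 230 and 977 units in combination libraries and 45.45 and 34.6 units in the 2 placed control libraries (3.54 ± 0.58, adjusted p = 0.0220), and its adjusted p was 0.0677 with places settled without the groups. Mgst1, a microsomal glutathione transferase, had 95.1 and 141 units in combination libraries, against 13.3 to 28.9 units in 3 control libraries (2.37 ± 0.46, adjusted p = 0.0215). In all, 5 of 25 monocyte genes tested rose and none fell, with a median log2 fold change of 0.61. Plac8 was also among those that rose. Ccr2, the chemokine receptor that brings monocytes out of the bone marrow, had 465 units in the 1 placed combination library and between 232 and 842 units in 3 control libraries, which spanned it (0.13 ± 0.58, adjusted p = 0.938). The summed level of the 8 monocyte markers placed in every library was 5803 to 6096 in combination libraries, inside the 3729 to 7463 of control libraries. Without combination replicate 2, Ly6c2 alone of the list passed, and without combination replicate 1, 3 members passed.

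Of the eosinophil list, the eosinophil-associated ribonucleases Ear1 and Ear2, which mouse monocytes and some tissue macrophages also express, rose. Their relatives Ear3, Ear10 and Ear12, outside the list, passed higher too (log2 fold changes 5.18, 4.70 and 5.18), but not with places settled without the groups. Each of these Ear calls rests on combination replicate 2 alone. Ear3 and Ear12 had the same values in all libraries, and whether the Ear genes share reads was not tested. Ear2 had 109 units in combination replicate 2 (replicate 1 was unplaced) and at most 1.12 units in control libraries (5.77 ± 0.69, adjusted p = 0.00149). Ear1 had 76.0 units in the same library and at most 1.12 units in control libraries (5.25 ± 0.67, adjusted p = 0.00232), and its adjusted p was 0.0618 with places settled without the groups. Other eosinophil markers stayed low: Siglecf had 10.9 and 22.7 units in combination libraries and 1 to 16.5 units in control libraries, and the eotaxin receptor Ccr3 had 2.25 and 7.11 units in combination libraries and 1.38 to 4.06 units in control libraries. Of 6 eosinophil markers 3 were tested, 2 of which passed higher, with a median log2 fold change of 5.25. The part of eosinophil RNA in these values was not tested.

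Neutrophil markers were also present at low level. The summed level of the 6 neutrophil markers placed in every library was 311 to 413 in combination libraries, against 98.3 to 323 in control libraries. Csf3r, the G-CSF receptor, had 292 and 399 units in combination libraries, against 129, 93.3, 302 and 148 units in control libraries, and did not pass (1.16 ± 0.42, adjusted p = 0.168). The granule protein genes Camp and Ngp were between 1 and 6.36 units in all 6 libraries. In several other members the placed values of the groups did not overlap. Mmp8 had 39.7 and 41.2 units in combination libraries and 1, 15.2 and 1 units in 3 control libraries. Clec4d had 610.5 and 713 units in combination libraries, against 110.5 to 370 units in control libraries. All placed values of Trem1, S100a9, Slpi, Lrg1, Wfdc21 and Retnlg were also higher in combination libraries, and those of Mmp9 were lower. S100a9, Slpi, Lrg1, Retnlg and Mmp9 were unplaced in some of the libraries, and Wfdc21 was near the floor. S100a8, a calgranulin abundant in neutrophils and monocytes, had 349 and 317 units in combination libraries and 304 units in the 1 placed control library. Of 19 neutrophil markers tested, none rose and 1 (Mmp9) fell, and the median log2 fold change was 0.97. Without control replicate 3, whose neutrophil sum of 323 was the highest of the controls, 3 markers passed higher and none lower. The part of neutrophil RNA in the results was not tested.

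**Figure D3:**
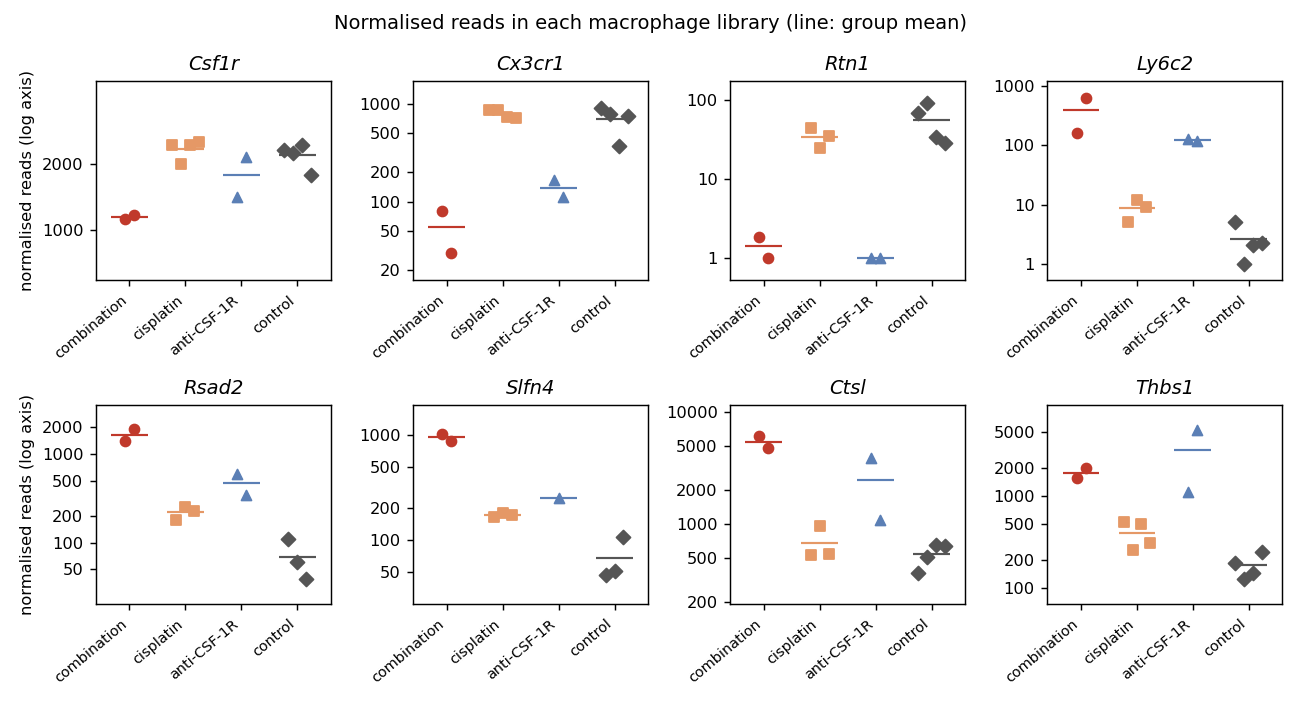
Normalised read counts (log axis, units) of 8 genes in each macrophage library, 1 point per placed value and a line at each group's mean, with combination left, then cisplatin, anti-CSF-1R and control antibody. Cx3cr1 lies at 81.2 and 29.8 in combination libraries below all controls, and Ly6c2 at 159.5 and 637 and Rsad2, with a mean of 1641, lie above all controls.

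The interferon-stimulated list held the most genes that rose of any list, 12 of 60 (20%), and had the most members tested. By share, 20% also rose in the monocyte list and 66.7% of 3 eosinophil markers, beside 1.14% of all genes tested. Rsad2, the gene of viperin, an antiviral enzyme, averaged 1641 ± 344 units in combination libraries (SD, n = 2), where the higher value was 1884, against 111, 59.9 and 38.5 units in 3 control libraries. Both combination values exceeded every placed control value. The log2 fold change was 4.65 ± 0.39 with an adjusted p of 0.000247. Slfn4, a Schlafen family gene of myeloid cells, had 1019 and 880 units in combination libraries and 46.7, 51.0 and 107 units in 3 control libraries (3.88 ± 0.33, adjusted p = 0.000315). The calls for Rsad2 and Slfn4 held in every fit with a library left out and with places settled without the groups.

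Daxx, a transcriptional corepressor of nuclear bodies, had 126.5 and 84.6 units in combination libraries, against 17.4, 10.6, 12.4 and 43.0 units in control libraries (2.47 ± 0.43, adjusted p = 0.00974). Rtp4, a chaperone induced by interferon, had 238 and 294 units in combination libraries and 31.7 units in the 1 placed control library (3.02 ± 0.53, adjusted p = 0.0220). No gene of the list fell. The others that rose were Oasl2, Mnda, Ddx58, Cmpk2, Slfn8, Ifi204, Samd9l and Parp14, with log2 fold changes between 1.72 and 2.41. Ddx58 encodes the RNA sensor RIG-I, and Cmpk2 lies next to Rsad2 in the genome. The list had a positive log2 fold change in 59 of 60 members and a median of 1.58, beside 4550 positive of 9085 and a median of 0.0012 over all genes tested.

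The number of interferon-stimulated genes that passed moved with control replicate 4. Without it 36 passed, and without control replicates 1, 2 or 3, 10, 5 or 6 passed. With either combination library left out, 2 passed, and 6 of 59 passed with places settled without the groups. The summed level of the 15 members placed in every library was 6497 and 6977 in combination libraries, against 1758 to 5633 in control libraries, so the groups did not overlap. Ifit1, an antiviral protein that binds RNA lacking cap methylation, had 167 and 124 units in combination libraries and 33.9 and 63.6 units in the 2 placed control libraries (1.61 ± 0.55, adjusted p = 0.168).

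Sequence before the start of these genes was taken from RefSeq promoters of GRCm38.p6, which is the mm10 build of the study, 250 bases before to 50 after the annotated start. They are shown because the interferon-stimulated response element is the site through which interferon-activated STAT complexes act. The motif searched was GAAANNGAAA, or TTTCNNTTTC on the other strand, and matches are in capitals. Rsad2 has 1 match, 120 bases before its start, Irgm1 has 2 that overlap, 30 and 24 bases before its start, and Slfn4 has none in this window.
Rsad2, chr12:26456403-26456702, minus strand: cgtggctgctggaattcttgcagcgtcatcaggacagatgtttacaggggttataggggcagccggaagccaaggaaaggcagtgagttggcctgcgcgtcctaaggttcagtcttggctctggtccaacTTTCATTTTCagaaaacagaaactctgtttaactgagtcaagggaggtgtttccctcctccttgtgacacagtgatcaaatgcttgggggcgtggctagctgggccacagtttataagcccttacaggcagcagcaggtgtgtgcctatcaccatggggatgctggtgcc
Irgm1, chr11:48871371-48871670, minus strand: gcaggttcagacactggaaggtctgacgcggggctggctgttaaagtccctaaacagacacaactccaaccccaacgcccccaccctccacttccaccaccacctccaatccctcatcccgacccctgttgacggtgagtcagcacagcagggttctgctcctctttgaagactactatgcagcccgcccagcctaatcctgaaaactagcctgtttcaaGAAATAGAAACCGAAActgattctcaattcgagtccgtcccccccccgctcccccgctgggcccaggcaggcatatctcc
Slfn4, chr11:83174936-83175235, plus strand: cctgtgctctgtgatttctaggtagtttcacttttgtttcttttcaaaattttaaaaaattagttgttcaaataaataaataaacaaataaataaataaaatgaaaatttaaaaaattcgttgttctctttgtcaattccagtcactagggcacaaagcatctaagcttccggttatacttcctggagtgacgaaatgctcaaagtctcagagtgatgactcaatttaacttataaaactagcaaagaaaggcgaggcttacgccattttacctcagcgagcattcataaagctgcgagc
A match was found in 19 of the 44 tested interferon-stimulated genes that have a promoter in the RefSeq table (43.2%), in 3 of the 8 such genes that passed (37.5%), in 287 of 6992 tested genes of any kind (4.1%) and in 1079 of 27025 RefSeq genes (3.99%). Among the genes of any kind that rose, 5 of 75 held a match (6.67%).

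The interferon-inducible GTPases, which attack vacuoles that hold microbes, were all positive (19 of 19 tested), with a median log2 fold change of 1.67. Of these, 2 passed. Irgm1 had 211 and 282 units in combination libraries and 69.6 and 30.3 units in the 2 placed control libraries (2.38 ± 0.44, adjusted p = 0.0253). Gvin1, a very large GTPase, had 778 and 799 units in combination libraries and 144, 183 and 425 units in 3 control libraries (1.81 ± 0.42, adjusted p = 0.0481). Neither passed without combination replicate 1 or 2, no member passed without control replicate 3, and 9 passed without control replicate 4. The motif above was found in all 10 tested members with a promoter in the table (100%).

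Antigen presentation genes did not pass in this comparison. None of 22 MHC class I presentation genes tested passed, although 20 were positive and the median log2 fold change was 0.95. The summed level of the 13 of them placed in every macrophage library was 40540 and 40900 in combination libraries, against 11850 to 37100 in control libraries, the highest of which was control replicate 4. Without that library 8 passed higher. Nlrc5, the transactivator of class I genes, had 121 and 109 units in combination libraries, against 49.9, 30.01, 26.2 and 74.2 units in control libraries (1.45 ± 0.40, adjusted p = 0.0763). None of 12 MHC class II genes passed, with a median of 0.07, and 1 passed higher without control replicate 4.

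Among ligands that act on T cells, 2 of 19 rose. Cd274, the gene of the checkpoint ligand PD-L1, had 587 and 767 units in combination libraries and 155, 161 and 316 units in 3 control libraries (1.75 ± 0.36, adjusted p = 0.0310). Il15, a growth factor of NK cells and memory T cells, had 45.3 and 37.7 units in combination libraries, against 7.30 to 20.6 units in control libraries (1.77 ± 0.39, adjusted p = 0.0331). The chemokine genes of that list did not pass: Cxcl10 had 126 and 183 units in combination libraries and 63.2, 87.6 and 33.05 units in 3 control libraries (adjusted p = 0.0597), and Cxcl9 had 248.9 and 978 units in combination libraries and 128, 147 and 187 units in 3 control libraries (adjusted p = 0.315). The median of the list was 1.15. Of 12 myeloid-attracting chemokines, Ccl6 and Ccl9 rose, and the median was 1.51. Ccl9 had 1323 and 1658 units in combination libraries, against 281 to 646 units in control libraries (1.61 ± 0.36, adjusted p = 0.0380). Ccl6 had 1119 and 1298 units in combination libraries and 166, 185 and 287 units in 3 control libraries (2.54 ± 0.55, adjusted p = 0.0331). None of these 4 genes passed without combination replicate 1 or without replicate 2, with adjusted p between 0.134 and 0.359.

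The replication and mitotic genes that passed all fell. Ube2c, the ubiquitin-conjugating enzyme of the anaphase-promoting complex, was listed at 1 in the placed combination library and had 40.3, 51.1 and 31.0 units in 3 control libraries (−4.36 ± 0.68, adjusted p = 0.0104). Mcm2, a subunit of the replicative helicase, had 9.95 units in the placed combination library and 57.7, 76.25 and 43.5 units in 3 control libraries (−2.42 ± 0.42, adjusted p = 0.0183). Both calls held in each fit with a library left out that could test them, but each rests on combination replicate 2 alone. Pola1, the catalytic subunit of DNA polymerase alpha, had 13.5 and 18.5 units in combination libraries, against 65.0, 72.2, 42.0 and 44.1 units in control libraries (−1.72 ± 0.33, adjusted p = 0.0183).

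Of 36 replication genes tested, 6 fell and none rose, with a median log2 fold change of −1.02. Besides Mcm2 and Pola1 they included Mcm5, Mcm3 and Gins2. Mcm5 had 10.9 and 7.82 units in combination libraries, against 18.4 to 45.4 units in control libraries (−1.73 ± 0.41, adjusted p = 0.0456). Of 33 mitotic genes tested, 4 fell and none rose, with a median of −1.39. The others were Ccnb1, the cyclin of mitotic entry, Foxm1, the transcription factor of mitotic genes, and Cks1b, whose 10.1 and 9.95 units in combination libraries stood against 27.3 to 38.9 units in control libraries (−1.58 ± 0.32, adjusted p = 0.0229). The calls for Ccnb1 and Foxm1 also rest on combination replicate 2 alone. Ccnb1 was listed at 1 there, against 24.7 and 26.8 units in the 2 placed control libraries. Foxm1 had 9.95 units there, against 37.9 to 80.6 units in 3 control libraries. Mki67, the proliferation antigen, had 607, 873, 330 and 144.5 units in control libraries and could not be placed in either combination library.

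The number of replication and mitotic calls moved with single libraries. Of the replication genes, 1 passed without combination replicate 1 and none without combination replicate 2, 2 without control replicate 1 or 2, 4 without control replicate 3 and 7 without control replicate 4. Of the mitotic genes, 1 passed without combination replicate 1 and none without combination replicate 2, 1 without control replicate 1 or 2, 6 without control replicate 3 and 9 without control replicate 4. With places settled without the groups, 2 genes of each list passed. Only 20 of the 41 replication genes and 6 of the 55 mitotic genes in the table had a placed value in every macrophage library.

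The promoters of Pola1 and Mcm5 are shown because replication genes are targets of the E2F factors, which act through sites of the form TTTCCCGC or TTTGGCGC, searched on both strands. Pola1 has 1 match, 138 bases before its start, and Mcm5 has 1, 149 bases before its start. Mcm2 has none in its window.
Pola1, chrX:93632106-93632405, minus strand: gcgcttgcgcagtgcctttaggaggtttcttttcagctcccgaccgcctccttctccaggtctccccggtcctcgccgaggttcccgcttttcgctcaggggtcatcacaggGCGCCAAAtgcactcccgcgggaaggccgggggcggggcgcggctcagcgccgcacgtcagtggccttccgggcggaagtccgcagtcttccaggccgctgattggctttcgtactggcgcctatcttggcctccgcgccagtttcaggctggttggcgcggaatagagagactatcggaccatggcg
Mcm5, chr8:75109259-75109558, plus strand: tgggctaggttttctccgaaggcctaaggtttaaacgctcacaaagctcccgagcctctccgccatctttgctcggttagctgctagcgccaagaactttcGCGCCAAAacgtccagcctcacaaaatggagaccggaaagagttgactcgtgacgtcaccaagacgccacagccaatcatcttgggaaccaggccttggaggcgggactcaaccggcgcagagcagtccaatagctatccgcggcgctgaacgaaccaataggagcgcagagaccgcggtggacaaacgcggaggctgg
A match was found in 9 of the 30 tested replication genes with a promoter in the table, in 3 of the 4 such genes that passed (75%), in none of 26 mitotic genes, and in 3.6% of all tested genes.

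Rtn1, a reticulon of the endoplasmic reticulum, had the largest decrease of the called genes. It had 1.87 and 1 units in combination libraries, against 69.1, 90.9, 33.7 and 28.5 units in control libraries. Combination replicate 2 lay at the floor and replicate 1 just above it, and the call held with any library left out (−4.40 ± 0.47, adjusted p = 0.000584). Hist1h2bl, a replication-dependent histone H2B gene, had 1 and 4.97 units in combination libraries and 38.6 to 84.4 units in 3 control libraries (−4.06 ± 0.59, adjusted p = 0.00857). Reads of this gene may be split with its near-identical family members. Prkcb, the gene of protein kinase C beta, had 140 and 114 units in combination libraries, against 362 to 669 units in control libraries (−1.96 ± 0.30, adjusted p = 0.00731). Pmepa1, a feedback inhibitor of TGF-beta signalling, had 473.5 and 170.5 units in combination libraries and 962 to 1267 units in control libraries (−1.92 ± 0.32, adjusted p = 0.00857). Shmt2, the mitochondrial serine hydroxymethyltransferase of one-carbon metabolism, had 14.6 and 14.9 units in combination libraries, against 37.4 to 81.9 units in control libraries (−2.05 ± 0.33, adjusted p = 0.00857).

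The other genes of largest decrease were the sorting complex gene Mvb12b, the dicarboxylate transporter Slc13a3, Rcc2, which acts at mitotic centromeres, the circadian repressor Nr1d1, Lsm2, Tbc1d4, Adam19, Ptgs1 and the class I-like gene H2-M2. Their log2 fold changes were between −1.86 and −3.13, and none of them passed without combination replicate 2 (adjusted p = 0.0601 to 0.355). Ptgs1, the gene of cyclooxygenase 1, had 57.3 and 43.3 units in combination libraries, against 118 to 397 units in control libraries (−1.94 ± 0.41, adjusted p = 0.0287). Without combination replicate 2 the adjusted p of Pmepa1, Prkcb and Shmt2 was between 0.136 and 0.176. Without combination replicate 1 that of Hist1h2bl was 0.0880 and that of Shmt2 0.0906.

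Ctsl (chromosome 13, 64359337 to 64370890, minus strand, GRCm38), the lysosomal protease cathepsin L, was among the most abundant genes that rose. It had 6112 and 4787 units in combination libraries, against 366, 509, 656 and 635 units in control libraries. These values are about 10.1 times higher in the mean, with no overlap, and the log2 fold change was 3.36 ± 0.43 with an adjusted p of 0.00234. The call held in all 6 fits with a library left out. Ctsd, cathepsin D, had 7778 and 6146 units in combination libraries, against 2429, 2031, 2706 and 4094 units in control libraries (1.35 ± 0.28, adjusted p = 0.0253). It was lost without any of combination replicates 1 and 2 or control replicates 1, 2 and 3 (adjusted p = 0.0525 to 0.226). Ctss, cathepsin S, had 17760 and 15110 units in combination libraries, against 4095, 3371, 6627 and 13300 units in control libraries, and did not pass (1.47 ± 0.47, adjusted p = 0.124). Of 40 lysosomal genes tested only Ctsl and Ctsd passed, and the median was 0.19.

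Lipid handling genes rose in 3 of 33 cases, with a median of 0.48. Fabp5, a fatty acid binding protein, had 954.5 and 740 units in combination libraries, against 129, 240, 211 and 168 units in control libraries (2.20 ± 0.26, adjusted p = 0.00115). Its call held with any library left out, but its value in combination replicate 1 could also be 95.45 by its digits, and with places settled without the groups its adjusted p was 0.707. Plin2, the coat protein of lipid droplets, had 1547 and 1602 units in combination libraries, against 585, 581, 697 and 743 units in control libraries (1.28 ± 0.20, adjusted p = 0.00731). Its adjusted p was 0.0660 and 0.124 without combination replicate 1 or 2. Gpnmb, a lysosomal glycoprotein of lipid-laden macrophages, had 746 units in the placed combination library and 79.5 and 86.1 units in the 2 placed control libraries (3.16 ± 0.38, adjusted p = 0.00857), and its adjusted p was 0.471 with places settled without the groups.

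Thbs1, the gene of the secreted matrix glycoprotein thrombospondin 1, had 1585 and 2005 units in combination libraries, against 187, 126, 143 and 248 units in control libraries. All combination values exceeded all control values (3.38 ± 0.49, adjusted p = 0.00432), and without combination replicate 2 the adjusted p was 0.115. Hif1a, the oxygen-regulated transcription factor, had 989 and 1222 units in combination libraries, against 381, 531, 443 and 367 units in control libraries (1.37 ± 0.23, adjusted p = 0.00857). It was the only 1 of 28 glycolysis and hypoxia genes to pass, the median of which was 0.41, and it did not pass without combination replicate 1 (adjusted p = 0.0526) or 2 (0.191). Kdr, a VEGF receptor typical of endothelium, had 119 and 66.1 units in combination libraries, against 10.6 to 25.7 units in control libraries (2.37 ± 0.38, adjusted p = 0.0119). It was the only 1 of 10 stromal and endothelial genes to pass, and its adjusted p was 0.162 and 0.101 without combination replicate 1 or 2. The endothelial adhesion gene Pecam1 had 46.4 and 33.4 units in combination libraries and 17.0 to 81.9 units in 3 control libraries, and Pdgfra of fibroblasts had 11.98 and 5.69 units in combination libraries and 1 to 2.79 units in control libraries. The collagen gene Col3a1 had 149 units in combination replicate 1, where Kdr was higher, and 6.41 and 22.7 units in 2 control libraries. The matrix gene Sparc had 86.8 and 55.4 units in combination libraries and 23.5 to 48.1 units in 3 control libraries, and Postn had 76.0 and 18.5 units in combination libraries and 43.5 and 13.8 units in 2 control libraries. The part of other cells' RNA in the Kdr value was not tested.

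Other genes of largest increase were the antiviral gene I830012O16Rik, the TNF family ligand Tnfsf14, the adhesion receptor Slamf7, the sorting receptor Sort1 and the small GTPase Rhou. Slamf7 had 339 and 620 units in combination libraries and 88.8, 51.1 and 96.5 units in 3 control libraries (2.58 ± 0.33, adjusted p = 0.00521). Tnfsf14, also called LIGHT, had 62.1 and 56.1 units in combination libraries and 5.68 to 8.93 units in 3 control libraries (2.82 ± 0.44, adjusted p = 0.00857). Rhou had 89.1 and 78.9 units in combination libraries, against 8.24 to 21.3 units in control libraries (2.43 ± 0.36, adjusted p = 0.00794). None of these 3 passed without combination replicate 2 (adjusted p = 0.115 to 0.124).

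Among immediate early and stress genes, 4 of 30 rose and 1 fell, with a median of 0.66. Ier5, an immediate early gene that acts on heat shock factor 1, had 2547 and 2184 units in combination libraries, against 299, 237, 376 and 914 units in control libraries (2.58 ± 0.40, adjusted p = 0.00857). Jun, an AP-1 subunit, had 452 and 579 units in combination libraries, against 94.8, 220, 155 and 232 units in control libraries (1.62 ± 0.32, adjusted p = 0.0220). Egr1 and Dusp1 rose as well. The gene that fell was Hspd1, the mitochondrial chaperonin, with 176 and 175 units in combination libraries, against 333 to 465 units in control libraries (−1.21 ± 0.20, adjusted p = 0.00857). None of the 5 passed without combination replicate 1 or 2.

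Of the p53 target genes tested, 11.1% passed, all higher, beside 1.14% higher over all genes tested. Mdm2, the ubiquitin ligase that limits p53, had 1346 and 2021 units in combination libraries, against 678, 372, 796 and 851 units in control libraries (1.36 ± 0.30, adjusted p = 0.0333). Ccng1, cyclin G1, had 453 and 517 units in combination libraries, against 257, 222, 269 and 271 units in control libraries (0.93 ± 0.18, adjusted p = 0.0220). Fas, the death receptor, averaged 20.4 ± 9.30 units in combination libraries (SD, n = 2), against 2.29 to 4.82 units in control libraries (2.13 ± 0.45, adjusted p = 0.0310). These 3 were the only ones of 27 tested, none fell, and the median was 0.49. None passed without combination replicate 1 or 2, or with places settled without the groups. Cdkn1a, the p21 cell cycle inhibitor, had 950 and 1598 units in combination libraries and 594, 486, 1366 and 1344 units in control libraries, so the groups overlapped (0.53 ± 0.40, adjusted p = 0.538).

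Inflammatory genes had a median log2 fold change of 1.01, and 2 of 36 rose. Casp4, the inflammatory caspase that senses cytosolic lipopolysaccharide, had 330 units in the placed combination library and 84.0 to 131 units in control libraries (1.64 ± 0.32, adjusted p = 0.0222). Il18, a cytokine matured by inflammasomes, had 56.9 and 89.5 units in combination libraries and 12.4 and 25.7 units in 2 control libraries (1.94 ± 0.45, adjusted p = 0.0471). Casp4 rests on combination replicate 2 alone, since replicate 1 could be 39.3 or 393 units, and with places settled without the groups its log2 fold change was 0.08 with an adjusted p of 0.965. Il18 did not pass with any 1 of combination replicates 1 and 2 or control replicates 1, 2 and 3 left out (adjusted p = 0.0641 to 0.408). Arg1, an arginase of alternatively activated macrophages, had 973 and 982 units in combination libraries, against 314, 139, 211 and 193 units in control libraries. Its groups did not overlap, and it did not pass (2.25 ± 0.79, adjusted p = 0.153). Mrc1, the mannose receptor, had 1602 and 1040 units in combination libraries and 1111 to 3423 units in control libraries (adjusted p = 0.645). Of 21 alternative activation genes, 2 rose (Chil3 and Egr2) and 1 fell (Ptgs1), with a median of 0.07.

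Among 13 matrix proteases, Mmp9 and Mmp13 fell and none rose, with a median of −0.21. Each of these calls leaves out 2 unplaced control values. Their lower possible places, 29.8 and 10.0 units for Mmp9 and 68.2 and 79.5 units for Mmp13, would not lie above both combination values. By their digits the combination values of Mmp9 could also be 311 and 291 units. Mmp9, gelatinase B, had 31.1 and 29.1 units in combination libraries and 157 and 313 units in the 2 placed control libraries (−2.84 ± 0.42, adjusted p = 0.0147). Mmp13, collagenase 3, had 138 and 95.2 units in combination libraries and 1018 and 416 units in the 2 placed control libraries (−2.50 ± 0.42, adjusted p = 0.0193). Neither passed without combination replicate 1, combination replicate 2 or control replicate 3, or with places settled without the groups. Without control replicate 3, 2 other members of the list passed higher and none lower. Among 23 chemokine receptor and homing genes, 1 rose and 1, Cx3cr1, fell. Cd4, a T cell co-receptor that some macrophages also carry, had 73.4 and 64.7 units in combination libraries, against 150 to 238 units in control libraries (−1.42 ± 0.24, adjusted p = 0.0163), and did not pass without combination replicate 1 (adjusted p = 0.103) or 2 (0.236). Klrk1, the other lymphocyte gene tested, did not pass. None of the dendritic cell (9 tested), mast cell (3), B cell (1), epithelial (2), colony-stimulating factor (6), iron and oxidative stress (25) and BCL2 family (14) genes passed, and 1 of 19 complement genes did, C1qc.

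The single treatments are set beside the combination for the same genes. These comparisons share the 4 control libraries. Against control, 19 of 9198 genes (0.207%) passed with cisplatin and 199 of 9110 (2.18%) with anti-CSF-1R. With anti-CSF-1R alone Rsad2 (log2 fold change 2.82), Ly6c2 (5.21), Cx3cr1 (−2.28) and Rtn1 (−4.66) also passed, in the same direction as with the combination. Daxx (1.11) and C1qc (−0.47) did not. Of the interferon-stimulated list 2 members passed higher with anti-CSF-1R, beside 12 with the combination. Of the monocyte list 3 did, beside 5. No member of either list passed with cisplatin. The median log2 fold change of the interferon-stimulated list was 1.58 with the combination, 0.16 with cisplatin and 0.27 with anti-CSF-1R. That of the mitotic list was −1.39 with the combination, −0.07 with cisplatin and −1.54 with anti-CSF-1R, and that of the replication list −1.02, −0.07 and −1.13 in the same order. That of the p53 target list was 0.49 with the combination, 0.41 with cisplatin and 0.21 with anti-CSF-1R. In the p53 list 3 members passed higher with the combination, 4 with cisplatin and 0 with anti-CSF-1R. Compared directly with cisplatin alone, 3 members of the p53 list passed lower in the combination and 0 higher.

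**Figure D4:**
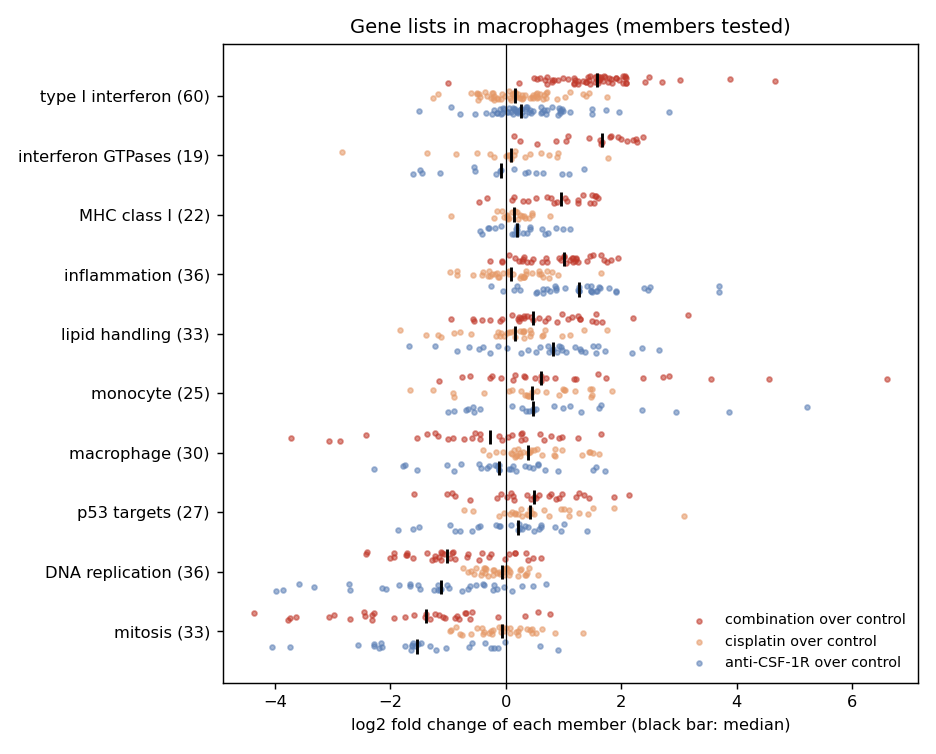
Log2 fold change over control-antibody macrophages (horizontal axis, log2(value + 1) scale) of the tested members of 10 gene lists, 1 point per gene, for the combination (upper row of each list), cisplatin (middle) and anti-CSF-1R (lower), with a black bar at each median. The interferon-stimulated list has a median of 1.58 with the combination, 0.16 with cisplatin and 0.27 with anti-CSF-1R, and the mitotic list −1.39, −0.07 and −1.54.

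Set directly against cisplatin alone, which shares its endpoint, the combination had 247 of 9083 genes past the threshold (2.72%), 113 higher (1.24%) and 134 lower (1.48%). This count was 27 and 8 without combination replicate 1 or 2, and 92, 418, 136 and 79 without cisplatin replicates 1, 2, 3 or 4. Of the interferon-stimulated list 8 of these passed higher, with a median log2 fold change of 1.41. Csf1r passed lower there (−1.02, adjusted p = 0.0355). Set directly against anti-CSF-1R alone, 0 of 9016 genes passed in limma with Benjamini-Hochberg adjustment (0.0%), while 764 had an unadjusted p under 0.05 and 3 passed with limma-voom. With 2 libraries on each side, the interferon-stimulated list had a median of 1.27 in that comparison, and the mitotic list 0.03. So the interferon-stimulated genes were not shown to differ between the combination and anti-CSF-1R alone.

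The difference between the combination and the sum of both single effects passed in 2 of 9008 genes (0.0222%), Etv1 and Alox5, in both of which cisplatin alone gave the high values. Etv1, an ETS family transcription factor, had 4.87 and 4.26 units in combination libraries, 152 to 196 units in cisplatin libraries, 7.62 and 8.16 units in anti-CSF-1R libraries and 5.02 to 15.8 units in control libraries. Against control antibody the combination did not change it past the threshold (−0.79 ± 0.38, adjusted p = 0.314). With 1 library left out, 1 to 5 genes passed, and with places settled without the groups none did. For the interferon-stimulated list this difference had a median of 0.95, and no member passed.

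In neutrophils of the same mouse model, the same pair of treatments gave 197 of 9897 genes past the threshold (1.99%), 118 of them higher (1.19%), and 25 of 59 interferon-stimulated genes rose there, with a median of 1.67 beside 1.58 in macrophages. The macrophage and neutrophil effects differed by a direct test in 1 of 9770 genes (0.0102%). That gene was Elmo1, an adaptor that activates Rac during engulfment of dying cells. It had 84.2 and 109 units in combination macrophages, against 308, 334, 278 and 225 units in control macrophages (−1.56 ± 0.22, adjusted p = 0.00432). In neutrophils it had 230 to 413 units with the combination and 228 to 282 units with control antibody, and the effects differed by −1.89 (adjusted p = 0.00495). Without combination replicate 1 no gene differed, and the adjusted p of Elmo1 between combination and control macrophages was 0.0730. Without control replicate 4, 8 genes differed.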

How the data were processed

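Sorted cells gave 10 ng of total RNA per library, amplified with Ovation RNA-seq V2, made into libraries with Encore Rapid and sequenced on an Illumina HiSeq, per the labels' protocols. Software listed, without roles, in the submitters' processing notes is DESeq2, R 3.3.1, Partek 6.6, TopHat2 2.0.11 and CASAVA 1.8, with mm10 as the build. The normalised signal of each gene was deposited by the authors as library-scaled counts with 6 significant digits. Values with 3 or more decimals lost the decimal point, and values under 1 are listed as 1. Each value times its library's step gives a whole number of reads, which left 1 possible decimal place for 33.1% of the 119952 macrophage values. Otherwise a negative binomial model over genes, libraries and groups chose it, and 4.33% of the values were left out with a probability below 0.95. A higher place needs a read number divisible by 10. Since the model knows the groups, places settled without them are an alternative.

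Log2(value + 1) was fitted with limma 3.58.1 in R 4.3.3 (lmFit, eBayes with trend) over the 12 macrophage libraries in 4 groups, for genes at 10 or more in at least 2 libraries, with Benjamini-Hochberg adjustment. Figures and tables were made with Python 3.11.15. Limma-voom on the decoded reads was an alternative. In data simulated for combination against control, 70 of 86 genes changed 4-fold and 23 of 100 changed 2-fold were called, with 4 false calls of 97 over 9045 genes tested. The simulation drew all libraries from the same model, with none set apart as control replicate 4 was. Its values were easier to place: 1.20% were left out and 0.0388% of those kept were wrong. In the data 4.33% were left out, and 0.108% of those kept were expected to be wrong. The simulated shares need not hold for the real calls.

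Members, 31 gene lists, tests and alternatives were chosen with earlier results of these data known. Genes named are the up to 15 largest changes each way with enough placed values, the up to 4 smallest p of each list, a set of marker genes, and those past the tests of differences between effects. Other genes named with values were chosen after their values were seen. Replicates are numbered in accession order. Antisense and overlapping genes cannot be told apart without strand, whose use in counting the labels do not state. Results for a few genes are not reported here.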

Additional observations from a re-analysis of the deposited data

Results flagged for a closer look

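Etv1 departed from the sum of the single treatments by −4.88 on the log2(value + 1) scale (limma, adjusted p = 0.00292 with Benjamini-Hochberg adjustment). It had 4.87 and 4.26 units in combination macrophages, 176.5, 182, 152 and 196 units with cisplatin, 7.62 and 8.16 units with anti-CSF-1R, and 11.45, 5.68, 15.8 and 5.02 units with control antibody. Cisplatin replicates 1, 3 and 4 allow a single decimal place, and the combination, anti-CSF-1R and control values also allow a place 10 times higher.

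Alox5, the gene of 5-lipoxygenase, which starts leukotriene synthesis, departed by −4.42 (adjusted p = 0.0493). It had 9.36 and 12.8 units in combination macrophages, 91.6, 142.5 and 161 units in 3 cisplatin libraries, 26.9 units in 1 anti-CSF-1R library, and 9.73, 17.9 and 12.8 units in 3 control libraries.

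The effect of the combination on Elmo1 differed between macrophages and neutrophils by −1.89 (adjusted p = 0.00495). In macrophages it was lower with the combination in both libraries, and in neutrophils the combination and control ranges overlapped.

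I830012O16Rik, an antiviral gene that rose in combination macrophages, had 1 control library apart from the others. Control replicate 2 was at 2.43 units, and the other 3 control libraries were at 4.12, 4.13 and 3.91 units, beside 75.2 and 43.3 units in combination libraries. On the log2(value + 1) scale the gap of control replicate 2 to the nearest library was 0.888 of the range of the group. Of 31 groups examined this way, chance marks about 1 in 20. The control values lie near the floor of 1, and 1 read is worth 0.811 units in control replicate 2. By its digits each control value also allows higher places.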

How the results depend on the processing

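The 210 calls between combination and control macrophages became 733 with array weights, 115 with the libraries of these 2 groups alone and 91 with places settled without the groups, and were 13 to 512 with 1 library left out. With limma-voom on the decoded reads there were 179, 112 higher and 67 lower, against 104 and 106 in limma on log2 values. The 247 calls against cisplatin became 1475, 546 and 127 under the first 3 of these settings, and 8 to 418 with 1 library left out. Against anti-CSF-1R, 0 became 3 with limma-voom, 3 with log2(value + 5), 17 with no filter on low values and 3 with the most probable place for every value, and was 0 to 8 with 1 library left out. The 2 departures from the sum of single effects became 1 with TMM scaling, 1 with array weights, 1 with a filter at 30, 11 with no filter, 0 with places settled without the groups and 6 with the most probable places, and were 1 to 5 with 1 library left out. The single difference between macrophage and neutrophil effects became 27 with array weights, 6 with limma-voom, 3 with log2(value + 5), 3 with no filter, 23 with quantile normalisation and 4 with the most probable places, and was 0 to 8 with 1 library left out. The cause of these shifts was not tested, except that fewer libraries were used where 1 was left out or 2 groups were fitted alone.

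None of the 69 named genes that passed changed sign under any of these settings, but 26 of 65 did not pass with places settled without the groups, 43 of 68 without combination replicate 1 and 49 of 60 without combination replicate 2. Sign changes were seen only in genes that did not pass. Adgre1 was at −0.10 with quantile normalisation, and between −0.14 (without combination replicate 2) and 0.23 with 1 library left out. Alox5 was at 0.0674 with limma-voom and 0.0406 with the most probable places. Ccr2 was at −0.0808 with limma-voom, −0.11 with quantile normalisation, −0.0695 with the most probable places, and between −0.31 (without control replicate 3) and 0.62 with 1 library left out. Lcn2 was at −0.57 (without control replicate 2) to 1.71 with 1 library left out. No paired analysis was possible because the labels give no replicate numbers. With 2 combination libraries, 23% of 2-fold changes were recovered in the simulation, whose values were easier to place, so a gene that did not pass may differ by that much.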
